A study of Mus musculus with 8 samples.

Results

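The HoxC cluster is a run of 9 homeobox genes on mouse chromosome 15 (Hoxc4, Hoxc5, Hoxc6, Hoxc8, Hoxc9, Hoxc10, Hoxc11, Hoxc12 and Hoxc13). All 9 were taken by name from the 36317 gene symbols of a bulk RNA sequencing table of mouse embryonic central nervous system, and all 9 were among the 17022 genes tested. The table held 4 groups of 2 libraries: wild-type (wt) forebrain at embryonic day (E) 13.5, wt spinal cord at E13.5, wt forebrain at E15.5, and EED-cKO forebrain at E15.5. EED-cKO embryos carry a knockout of Eed that depends on Sox1-Cre, a recombinase driven from a gene of the early neural lineage, so cells outside that lineage in a dissected forebrain can still have Eed. The labels give neither the Eed allele nor the Cre status of the wt embryos, and they do not say whether replicates were separate embryos or pools. P-values therefore measure only the spread between these libraries.

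Hox genes encode homeodomain transcription factors that give cells their position along the body axis. Genes with low paralogue numbers lie towards the 3′ end of each cluster and act in the neck and upper trunk, and those with high numbers lie towards the 5′ end and act in the lumbar, sacral and tail regions. In the spinal cord the HoxC genes are known for setting motor neuron columns and pools, and in the forebrain Hox genes are normally silent under Polycomb repression, in which the PRC2 complex (EED, EZH2 and SUZ12) places a repressive histone mark. Paralogue numbers are shared with the HoxA, HoxB and HoxD clusters, and genes with the same number are called a paralogue group.

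All 9 members lie on the + strand of GRCm38 chromosome 15, from the first base of Hoxc13 (102921103) to the last base of Hoxc4 (103036852), a span of 115.75 kb in the GENCODE annotation. The homeobox, the coding stretch for the DNA-binding homeodomain, is the part of these genes most alike between members, so it bears on whether short reads could be given to the wrong member. Homeobox sequences were found for all 9 members in the GENCODE transcripts, each of 180 bases within 1 exon. The 2 shown are those of Hoxc6 (chr15:103010754-103010933), a member of the groups that were high in spinal cord, and of Hoxc12 (chr15:102938308-102938487), the member with the highest level in EED-cKO forebrain. Capitals mark the codons of the invariant WFQNRR motif of the third helix, which contacts DNA.
Hoxc6: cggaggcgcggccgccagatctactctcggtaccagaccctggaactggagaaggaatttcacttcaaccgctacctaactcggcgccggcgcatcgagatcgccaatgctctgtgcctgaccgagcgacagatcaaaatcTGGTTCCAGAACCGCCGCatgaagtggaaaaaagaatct
Hoxc12: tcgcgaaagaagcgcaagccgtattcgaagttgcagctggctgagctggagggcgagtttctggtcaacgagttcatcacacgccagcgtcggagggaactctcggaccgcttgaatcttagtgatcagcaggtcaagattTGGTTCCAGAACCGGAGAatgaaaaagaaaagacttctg

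Over the 36 pairs of members, 48.3% to 77.8% of homeobox bases were identical (median 59.7%), and the longest identical run at matching positions was 20 bases. Reads were 50 bases long and unstranded. No stretch of 50 bases in the transcripts of Hoxc4, Hoxc6, Hoxc11, Hoxc12 or Hoxc13 occurred in the transcripts of another gene. Hoxc5 and Hoxc10 shared 166 exonic bases in the annotation, and 3.92% of the 50-base stretches of Hoxc5 and 6.40% of those of Hoxc10 were in the other gene. Hoxc8 (0.432%) and Hoxc9 (1.44%) held a few stretches found elsewhere. Values of Hoxc5 and Hoxc10 are therefore uncertain where the other is high, since how the authors counted shared bases is not given in the sources used here.

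Levels are RPKM, reads per kilobase of transcript scaled to mapped reads, and they were deposited to the nearest 0.1. Comparisons between genes rest on the transcript lengths that the authors used, which are not given in the sources used here. In the GENCODE annotation the members' exonic lengths ran from 1031 bases for Hoxc12 to 3089 for Hoxc5. Without counts in the table, sequencing depth is unknown and no counting interval could be given. RPKM summed to 378294 to 397320 per library at E13.5 and to 761647 to 843296 at E15.5, so levels were compared within an age. In forebrain at E15.5 Eed stood at 25.8 and 27.9 RPKM in wt and at 10 and 10.6 in EED-cKO (log2 difference −1.30, SE 0.0812, limma adjusted p = 0.00941), and Ezh2 fell with it (−1.12, limma adjusted p = 0.00798). Forebrain markers summed to 594.5 to 602.4 RPKM in the 4 wt forebrain libraries, 246.4 and 206.4 in EED-cKO forebrain, and 1.4 in each spinal cord library. These sums set the forebrain labels apart from the spinal cord labels, with EED-cKO forebrain between wt forebrain and spinal cord.

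The deposited names belong to other rows for much of the 4 E15.5 columns, so the names were reassigned there by the alphabet, ignoring case and hyphens. Every HoxC value at E15.5 depends on this. The same 9 rows hold the HoxC values in the deposited and in the restored order, so the summed HoxC level is identical in both, and the order decides which member each value belongs to. In the 50 genes on each side of the Hox genes, the correlation across genes between the 2 ages of wt forebrain was r = 0.980 and 0.919 in the restored order, and at most 0.719 and 0.159 when the names were shifted by up to 3 rows. Inside the Hox genes this check says little, because wt forebrain is at or near 0 for nearly all of them. Outside the Hox genes, 2218 reassigned genes of other numbered families that run past 9 gave r = 0.886 in the restored order and 0.326 in the deposited order. Those genes do not test the HoxC rows themselves. Statements on which HoxC member was high at E15.5 hold for the restored order.

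HoxC transcripts were close to absent in wt forebrain. Of 36 values (9 genes in 4 libraries), the highest was 0.1 RPKM, reached by Hoxc12 and Hoxc13 in E13.5 replicate 1 and by Hoxc5 in both E15.5 libraries. The 9 members summed to 0.2 and 0 RPKM at E13.5 and to 0.1 in each library at E15.5. No member reached 1 RPKM in wt forebrain at either age, so the 2 ages gave no HoxC difference to compare.

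In EED-cKO forebrain all 9 members were higher than in wt forebrain of the same age, and in the restored row order the 5 genes of groups 9 to 13 were at higher levels than the 4 of groups 4 to 8. By limma all 9 of 9 rose at an adjusted p under 0.05, where 19.9% of all tested genes were called higher. Genes were tested if they reached 1 RPKM in at least 2 libraries. Hoxc10, Hoxc11, Hoxc12 and Hoxc13 did so only through the EED-cKO libraries, where they were high. Their calls are therefore not independent of that filter. The median log2 difference was 4.11 over the members and 0.08 over all genes tested. In bulk tissue more cells with a transcript and more transcript per cell cannot be told apart. EED-cKO values lay above wt values without overlap for all 9, as they did for 42.6% of all tested genes. Group values below are mean ± SD with n = 2, differences are on the log2(RPKM + 1) scale with their standard error (SE), and p-values are limma's, two-sided, adjusted over all 17022 genes. Where wt forebrain is listed at 0, the size of a difference depends on the pseudocount, the value added before the log, and is not a fold change. With 0.1 added in place of 1, the knockout difference was 6.29 in place of 3.13 for Hoxc4 and 9.45 in place of 6.14 for Hoxc12.

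**Figure D1:**
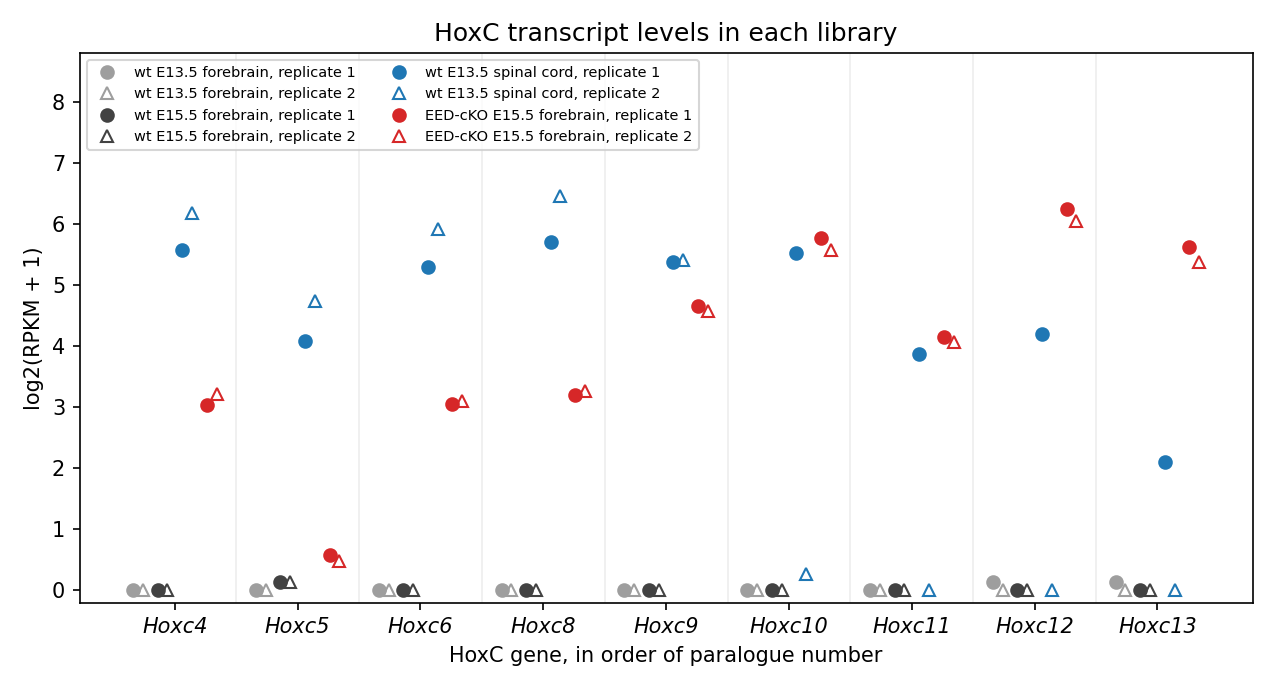
HoxC levels as log2(RPKM + 1) on the y axis for the 9 genes on the x axis, with 1 point per library: filled circles are replicate 1 and open triangles replicate 2, coloured by group. EED-cKO forebrain (red) is above both wt forebrain groups (greys) for every gene, and the 2 spinal cord libraries (blue) part from Hoxc10 on, at 45.2 and 0.2 RPKM.

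The members of groups 4 to 6 act at cervical and forelimb levels of the cord. Hoxc4 was at 7.2 and 8.3 RPKM in EED-cKO forebrain and listed at 0 in wt forebrain of that age (log2 difference 3.13, SE 0.0864, limma adjusted p = 0.00365). Hoxc6, which acts in forelimb-level motor neurons, was at 7.3 and 7.6 RPKM in the knockout and at 0 in wt (3.08, SE 0.0552, limma adjusted p = 0.00254). Both genes were thus at nearly one level in the knockout, with replicates that overlapped between the genes. Hoxc5, which with Hoxc4 is active around the level of the phrenic motor neurons, stood apart from its neighbours. It was at 0.5 and 0.4 RPKM in EED-cKO forebrain and at 0.1 in each wt library (0.40, SE 0.0416, limma adjusted p = 0.0161). That gap is a few steps of the rounding, and Hoxc5 entered the test only through the spinal cord libraries, since it stayed below 1 RPKM in both EED-cKO libraries. Its call was lost in the fit of all 8 libraries (limma adjusted p = 0.131) and without any 1 of the 4 E15.5 libraries.

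Hoxc8 and Hoxc9 act where the forelimb level meets the thoracic cord. Hoxc8, which helps to set forelimb motor pools, was at 8.2 and 8.6 RPKM in EED-cKO forebrain and listed at 0 in wt (3.23, SE 0.0593, limma adjusted p = 0.00254). This is the level of Hoxc4 and Hoxc6. Hoxc9, which specifies thoracic motor columns and represses the limb-level programme, was at 24.2 and 22.7 RPKM, with wt again at 0 (4.61, SE 0.0851, limma adjusted p = 0.00254). Both Hoxc9 values were above every value of Hoxc4 to Hoxc8.

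The 4 members of groups 10 to 13 held most of the HoxC signal of the knockout. Hoxc10, a gene of lumbar motor neurons, was at 53.5 and 46.4 RPKM in EED-cKO forebrain and at 0 in wt (5.67, SE 0.115, limma adjusted p = 0.00261). Hoxc11, also of the hindlimb level, was the lowest of the 4, at 16.8 and 15.8 RPKM against 0 (4.11, SE 0.0773, limma adjusted p = 0.00254). Hoxc12, which lies next to Hoxc13 near the 5′ end of the cluster, reached 74.8 and 64.9 RPKM against 0 (6.14, SE 0.114, limma adjusted p = 0.00254). Both values were above those of every other HoxC member. Hoxc13, best known for its role in hair and nails, was at 48.4 and 40.5 RPKM against 0 (5.50, SE 0.128, limma adjusted p = 0.00285). Hoxc10 and Hoxc13 overlapped, while the values of Hoxc9, Hoxc11 and then Hoxc8 followed without overlap.

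The calls of the knockout comparison lean on 1 library. Without wt E15.5 replicate 2, limma called 0 of the 9 members and 0 of all 17022 genes, although all 9 members and 7345 genes were at an unadjusted p under 0.05. The adjusted p was then 0.0626 for 8 members and 0.0910 for Hoxc5, and the log2 differences of the members were the same to 2 decimals. Without any other single library, 8 members were called and Hoxc5 was not.

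In wt E13.5 spinal cord the HoxC genes were at their known site of activity, and the 5 members of groups 4 to 9 were higher than in E13.5 forebrain. By limma 5 of 9 members rose, where 50.4% of all tested genes were called, 23.8% higher and 26.6% lower. The median log2 difference was 4.42 over the members and 0.00 over all genes tested. Spinal cord values lay above forebrain values without overlap for 6 of the 9, as they did for 37.0% of all tested genes. Forebrain of the same age was the background, with HoxC values of 0 to 0.1 RPKM throughout.

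Hoxc8 was the highest member in spinal cord by its mean, with 51.3 and 87.1 RPKM against 0 in both forebrain libraries (log2 difference 6.08, SE 0.312, limma adjusted p = 0.00472). Hoxc4 was at 46.6 and 71.1 RPKM (5.87, SE 0.250, limma adjusted p = 0.00410) and Hoxc6 at 38.4 and 59.5 (5.61, SE 0.258, limma adjusted p = 0.00435), both against 0. Hoxc5 was lower than these, at 16 and 25.8 RPKM against 0 (4.42, SE 0.274, limma adjusted p = 0.00565). For these 4 genes replicate 2 was above replicate 1 by a similar ratio, between 1.53 and 1.70. Hoxc9 had almost the same level in both, 40.7 and 41.3 RPKM against 0 (5.39, SE 0.0426, limma adjusted p = 0.00158). The ranges of neighbouring members overlapped all along the order of mean levels in spinal cord, so that order is not settled by these 2 libraries. Leaving out forebrain replicate 1 left 3 members called and leaving out forebrain replicate 2 left 2, with adjusted p of 0.0502 to 0.0630 for those of Hoxc5, Hoxc6 and Hoxc8 that were lost.

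Groups 10 to 13 were present in spinal cord replicate 1 and nearly absent from replicate 2. Hoxc10 was at 45.2 and 0.2 RPKM (22.7 ± 31.8), Hoxc11 at 13.7 and 0 (6.85 ± 9.69), and Hoxc12 at 17.4 and 0 (8.70 ± 12.3). Hoxc13 was at 3.3 and 0 RPKM (1.65 ± 2.33). None of the 4 passed the test against forebrain (log2 differences of 0.98 to 2.90, limma adjusted p = 0.349 to 0.410), with 1 spinal cord library at the forebrain level or close to it. Without spinal cord replicate 2 all 9 members were called. Without replicate 1 the call count was 6, with Hoxc10 called at a difference of only 0.26.

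The same split between the spinal cord libraries was seen in paralogues of the other clusters. Hoxa10 was at 34.6 and 3 RPKM and Hoxd10 at 23.2 and 0. Hoxd9, of group 9, was at 26.9 and 0.3 RPKM, whereas Hoxa9 was at 65.6 and 43.3. Markers of dorsal root ganglia and neural crest, which lie beside the cord, also differed between these libraries. The 9 of 10 such markers in the table summed to 246.1 RPKM in replicate 1 and 170.3 in replicate 2, against 16.3 to 32 in the 6 forebrain libraries, with no marker at 0 in any library. Spinal cord markers differed little, at 229.4 and 234.9. Whether the dissected length of cord, adjoining ganglia or embryo age has a part in the HoxC difference was not tested.

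The shape of HoxC activity differed between EED-cKO forebrain and spinal cord. The 9 members summed to 240.9 and 215.2 RPKM in EED-cKO forebrain and to 272.6 and 285 in spinal cord. These totals come from 2 ages with separate scales and are not compared: their means were 228 and 279 as deposited, 179 and 375 after quantile normalization, and 179 and 353 after median ratio scaling. Groups 10 to 13 made up 80.3% and 77.9% of the HoxC total in the EED-cKO libraries. They made up 29.2% in spinal cord replicate 1 and 0.0702% in replicate 2. Groups 4 to 8 made up 9.63% and 11.6% in EED-cKO forebrain and 55.9% and 85.4% in spinal cord. The share of Hoxc9 was similar everywhere, at 10% and 10.5% in EED-cKO forebrain and 14.9% and 14.5% in spinal cord. Hoxc12 alone held 31.1% and 30.2% of the EED-cKO total. These shares do not depend on a scale factor of the library, but they do depend on the row order: in the deposited order the mean share of groups 10 to 13 in EED-cKO forebrain was 17.5% in place of 79.1%. The columns of the 2 ages also differ in their content. Of 1174 microRNA rows, 304 and 313 were above 0 in spinal cord and 10 in each EED-cKO library. A difference between the ages in how single genes were counted would not cancel in a share. Its part in these shares was not tested.

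**Figure D2:**
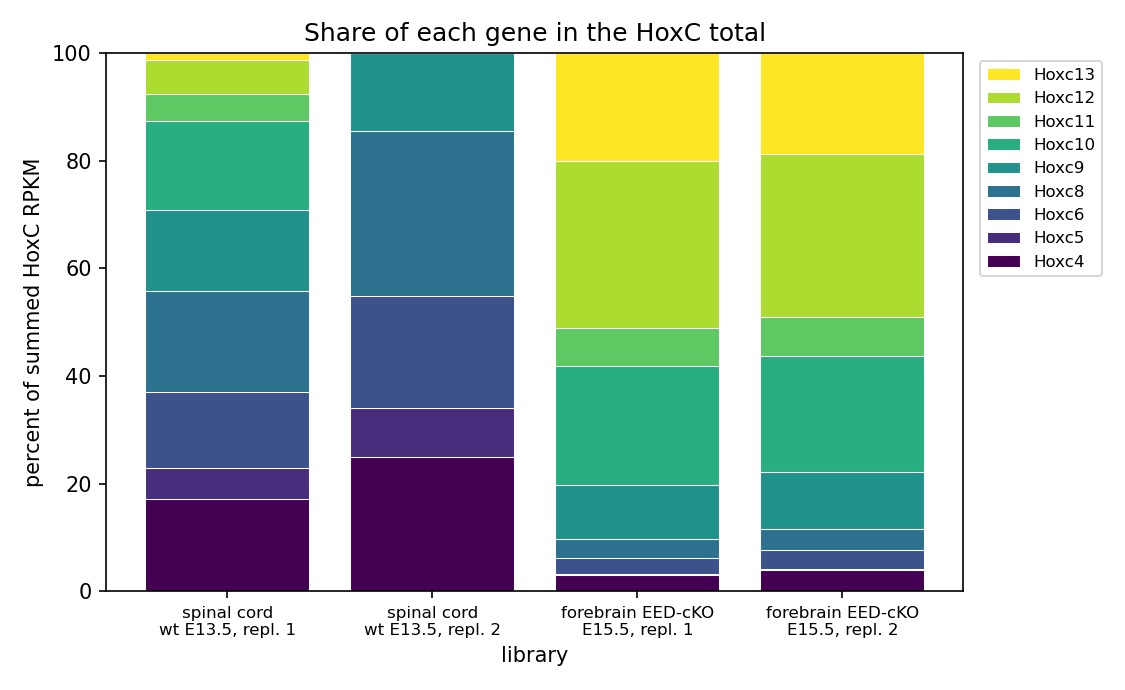
Share of each HoxC gene in the summed HoxC RPKM (y axis, percent) of the 2 spinal cord and 2 EED-cKO forebrain libraries (x axis), stacked from Hoxc4 at the bottom to Hoxc13 at the top. Groups 10 to 13, the green to yellow parts, fill 80.3% and 77.9% of the EED-cKO bars, 29.2% of spinal cord replicate 1 and 0.0702% of replicate 2.

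The difference between the knockout change and the regional change was tested for each member in 1 fit of all 8 libraries, as (EED-cKO minus wt at E15.5) minus (spinal cord minus forebrain at E13.5). HoxC was close to absent in both wt forebrain groups, so each difference is close to a comparison of EED-cKO with spinal cord levels. A scale factor between the ages does not cancel in it, and the sizes below depend on that scale. A difference between the ages in how single genes were counted would not cancel either. The 5 members of groups 4 to 9 changed less in the knockout than between the regions, where 12.7% of all tested genes were called lower. The gap was largest for Hoxc5 (log2 −4.02, SE 0.272, limma adjusted p = 0.000132) and was −2.85 for Hoxc8, −2.75 for Hoxc4 and −2.53 for Hoxc6 (limma adjusted p = 0.000407 to 0.000641). For Hoxc9 it was small (−0.78, SE 0.113, limma adjusted p = 0.00210). Hoxc13 changed more in the knockout (4.52, SE 0.808, limma adjusted p = 0.00513), where 23.4% of all tested genes were called higher. Hoxc12 (4.11, SE 1.59, limma adjusted p = 0.0846), Hoxc10 (2.77, SE 1.99, limma adjusted p = 0.321) and Hoxc11 (2.17, SE 1.47, limma adjusted p = 0.292) did not pass, with SEs set by the 2 spinal cord libraries. Without spinal cord replicate 1 all 4 members of groups 10 to 13 were called higher, and without replicate 2 Hoxc12 and Hoxc13 were. In the deposited row order 1 member was called lower in place of 5, and the Hoxc6 difference turned to 0.53 (limma adjusted p = 0.164).

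**Figure D3:**
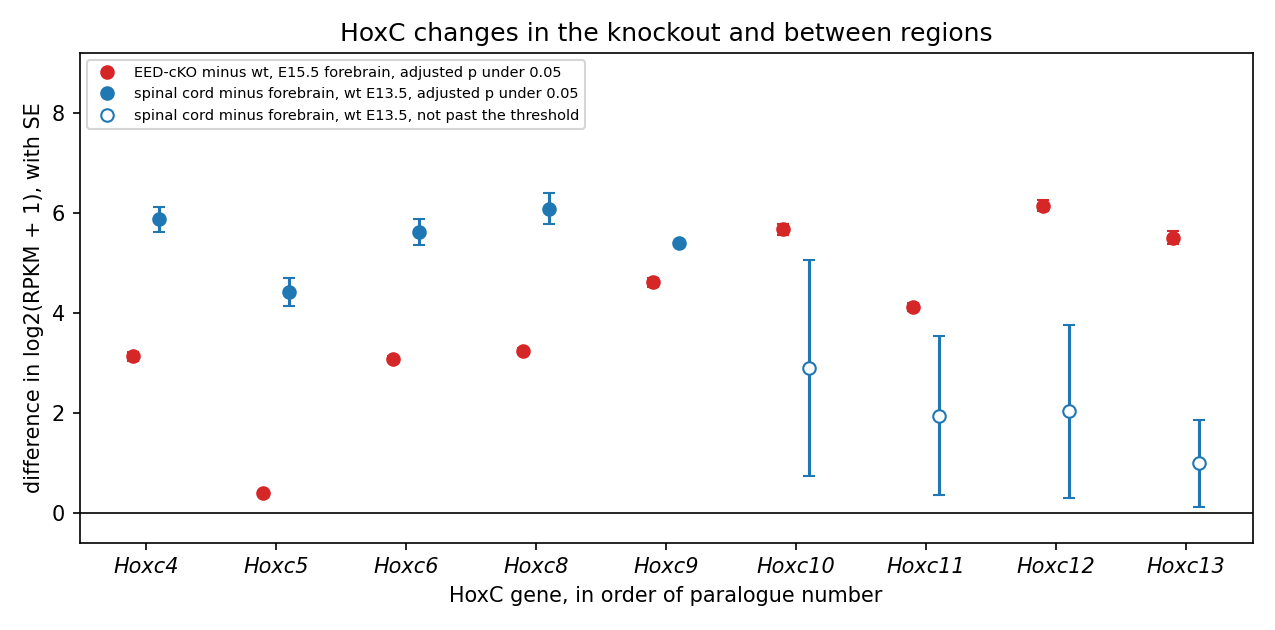
Difference in log2(RPKM + 1) with its SE (y axis) for each HoxC gene (x axis): red is EED-cKO minus wt E15.5 forebrain, blue is spinal cord minus forebrain at E13.5, and open symbols did not pass an adjusted p of 0.05. Red lies below blue from Hoxc4 to Hoxc9 and above it from Hoxc10 on, where the regional SEs reach 2.17.

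HoxC made up a larger share of all Hox transcript in EED-cKO forebrain than in spinal cord. The 39 Hox genes summed to 522.8 and 468.8 RPKM in the EED-cKO libraries, of which HoxC held 46.1% and 45.9%, and to 1820 and 1945 in spinal cord, of which it held 15.0% and 14.7%. HoxB showed the opposite, with 17.4% and 18.5% in EED-cKO forebrain and 57.5% and 62.2% in spinal cord. The share of groups 10 to 13 within a cluster was also highest for HoxC in the knockout, against 28.8% and 28.2% in HoxA, 40.9% and 39.6% in HoxB, and 45.3% and 43.5% in HoxD. These are descriptions of 2 libraries a group, without a test, and they rest on the restored order. The comparison with spinal cord also assumes that genes were counted alike at both ages, which is not known. By limma, 11 of 11 HoxA, 9 of 9 tested HoxB and 7 of 8 tested HoxD genes also rose in the knockout, where 19.9% of all tested genes were called higher. Their median log2 differences were 2.72, 2.94 and 2.93 over each whole cluster, against 4.11 for HoxC.

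Set beside its paralogues, the HoxC gene had the highest level in EED-cKO forebrain in groups 6, 8, 9, 10, 11, 12 and 13. In group 13 Hoxc13 was followed by Hoxb13, at 37.3 and 34.4 RPKM, and by Hoxd13, at 4.4 and 4. In group 12 the only other gene, Hoxd12, was listed at 0 in both EED-cKO libraries, so Hoxc12 was the whole of the group. In group 10 Hoxd10 was at 25.6 and 21.4 RPKM and Hoxa10 at 19.6 and 16.9, below Hoxc10 in both libraries. In group 11 Hoxd11 was at 11.5 and 8.1 and Hoxa11 at 5.3 and 5.4, below Hoxc11. In group 9 Hoxd9 was at 20.5 and 18.8 and Hoxa9 at 16.2 and 15.5, in group 8 Hoxd8 at 7.9 and 6.1, and in group 6 Hoxa6 at 5.7 and 5.5. In groups 4 and 5 the HoxC gene was not the highest: Hoxd4 was at 14.9 and 12.3 RPKM against 7.2 and 8.3 for Hoxc4, and Hoxa5 at 13.6 and 11.7 against 0.5 and 0.4 for Hoxc5. In spinal cord the HoxC gene had the highest mean in groups 4, 10, 11, 12 and 13, but for groups 10 to 13 only through replicate 1. In replicate 2 Hoxc10 was at 0.2 RPKM, below Hoxa10 at 3, and Hoxc11, Hoxc12 and Hoxc13 were at 0. In group 4 Hoxc4 was close to Hoxd4 in replicate 1 (46.6 and 46.1 RPKM) and above it in replicate 2 (71.1 and 47). Group 5 in spinal cord was led by Hoxa5, group 6 by Hoxb6, group 8 by Hoxb8, at 367.3 and 408.4 RPKM, and group 9 by Hoxb9, at 268.2 and 318.1.

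**Figure D4:**
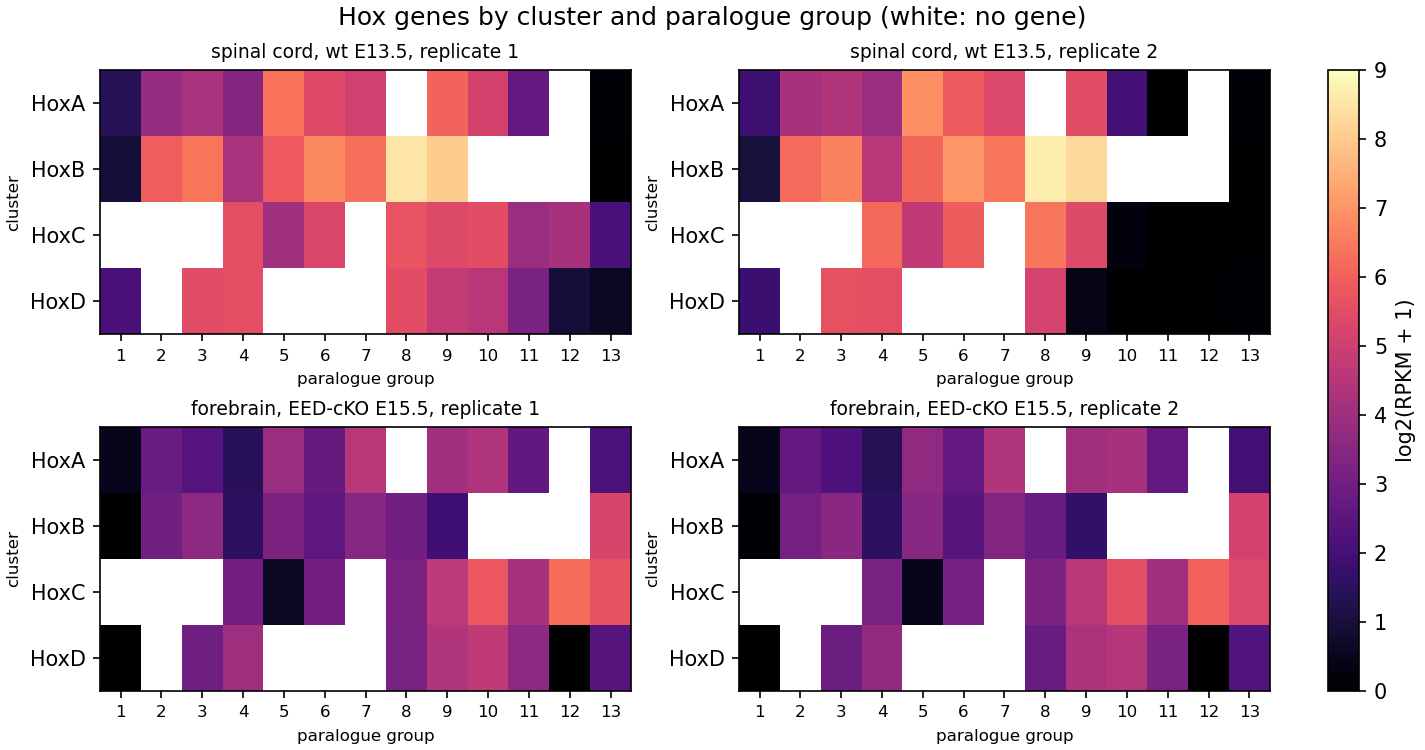
Level of each Hox gene as log2(RPKM + 1) (colour scale) by cluster (rows) and paralogue group (columns, 1 to 13) in the 2 spinal cord and 2 EED-cKO forebrain libraries, with white where a cluster has no gene. In EED-cKO forebrain the brightest cells are Hoxc10, Hoxc12, Hoxc13 and Hoxb13, and in spinal cord they are Hoxb8 and Hoxb9.

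Other transcripts from within the cluster were measured as well. Hotair, a long noncoding RNA on the − strand between Hoxc12 and Hoxc11 (chr15:102944062-102947730), was at 4.6 and 3.7 RPKM in EED-cKO forebrain and listed at 0 in wt (2.36, SE 0.103, limma adjusted p = 0.00697). In spinal cord it was at 3.5 and 0 RPKM (1.08, limma adjusted p = 0.385), present in the library that had groups 10 to 13. The cluster also holds 2 microRNA genes, within the annotated span of Hoxc5 but in none of its exons. Their main mature forms are shown with the seed, bases 2 to 8, in capitals, from RefSeq on GRCm38.p6, where both genes had an entry. The miR-196 family is known to target Hox transcripts.
mmu-miR-196a-5p: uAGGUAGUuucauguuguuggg
mmu-miR-615-3p: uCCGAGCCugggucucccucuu

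Mir615 was at 3 and 4.5 RPKM in spinal cord and at 0 in E13.5 forebrain (2.23, SE 0.190, limma adjusted p = 0.00831). Mir196a-2 was at 0 and 0.8 in spinal cord, at 0 elsewhere, and not tested. The 0 of both at E15.5 carries no information, since 10 of 1174 microRNA rows were above 0 in each E15.5 library, against 251 to 313 at E13.5.

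Of a list of 14 transcripts within and around the cluster, 12 were tested, and the share called in the knockout was near that of all tested genes (28.1%, with 19.9% higher and 8.13% lower). In the knockout 2 of the 12 rose, Hotair and Itga5 (0.98, limma adjusted p = 0.0303), and Calcoco1 fell (−0.44, limma adjusted p = 0.0205), and the median over the list was 0.00 against 0.08 over all genes. Calcoco1, an autophagy receptor gene 198.9 kb beyond Hoxc13, was at 37.9 and 36.8 RPKM in EED-cKO forebrain and 52.3 and 49.6 in wt. Smug1, a DNA repair gene 116.4 kb beyond Hoxc4, was at 9.1 and 10.1 RPKM in the knockout and 11.3 and 12 in wt, and did not pass (limma adjusted p = 0.138). Between the regions Smug1 was higher in spinal cord, at 20.9 and 36.2 RPKM against 7.9 in both forebrain libraries (1.68, limma adjusted p = 0.0314). Replicate 2 was the higher of the 2 for Smug1, as for Hoxc4 to Hoxc8. Besides Smug1 and Mir615 none of the 12 rose between the regions, and Atp5g2, Cbx5, Hnrnpa1 and Copz1 were lower in spinal cord. Over all tested genes 23.8% were higher in spinal cord and 26.6% lower.

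Hox proteins bind DNA with cofactors of the TALE class, and these were expressed in both wt and EED-cKO forebrain. Of 9 cofactor genes, 3 rose in the knockout (Meis1, Pbx3 and Pknox2) and Meis2 fell. Pbx3 went from 65.3 and 56.3 RPKM in wt to 125.6 and 127.7 in EED-cKO forebrain (1.05, limma adjusted p = 0.0128), and Meis2 from 151.5 and 135.1 to 67.3 and 67.5 (−1.07, limma adjusted p = 0.0107). The median over the 9 was −0.01. Over all tested genes 19.9% rose and 8.13% fell in the knockout. In spinal cord 5 of the 9 were higher and 3 lower than in forebrain, against 23.8% and 26.6% over all tested genes.

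A list of 13 genes of caudal patterning held factors that act on Hox genes in the tailbud. Of these 7 were tested, and 3 rose in the knockout (Evx1, Evx2 and Nr6a1), against 19.9% of all tested genes. Cdx2, a caudal activator of Hox genes, was at 0.3 RPKM in each EED-cKO library and 0 in all others, and Cdx1 and Cdx4 reached at most 0.2. Nr6a1 was at 2.2 and 2.5 RPKM in EED-cKO forebrain against 0.8 and 0.7 in wt (0.94, limma adjusted p = 0.0116). Gdf11, a signal for trunk-to-tail Hox activity, was at 12.5 and 13.4 against 11 and 9.5 and did not pass (limma adjusted p = 0.119).

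Genes of the spinal motor columns, among which HoxC factors act, were measured in both comparisons. In the knockout 5 of 12 rose (Aldh1a2, Mnx1, Isl2, Slc5a7 and Gfra1) and Pou3f1 fell, against 19.9% higher and 8.13% lower over all tested genes. The median was 0.89 against 0.08 over all genes. Gfra1, a GDNF receptor gene of limb-level motor pools, was at 38.1 and 33.1 RPKM in EED-cKO forebrain against 11 and 9.5 in wt (1.70, limma adjusted p = 0.0108). Aldh1a2, a retinoic acid synthesis enzyme of limb-level motor neurons and also of meninges, was at 25.4 and 25.8 against 13.8 and 13.1 (0.88, limma adjusted p = 0.0115). In spinal cord it was at 38.5 and 58.1, with replicate 2 again the higher. Between the regions 10 of the 12 were higher in spinal cord and Pou3f1 was lower, against 23.8% higher and 26.6% lower over all tested genes. In addition, 11 of 11 genes listed as spinal cord markers rose in the knockout, from a sum of 19.4 and 10.7 RPKM in wt to 189.1 and 173.6. Of these 11 only 6 were called higher in spinal cord than in forebrain at E13.5, and Dbx1 and Sim1 were called lower. Tal1, a factor of spinal interneurons and of blood and vessel lineages, made up much of the EED-cKO sum, at 55.7 and 49.8 RPKM against 4.4 and 5.7 in spinal cord. Of 11 forebrain markers 8 fell and Nkx2-1 rose.

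Markers of meninges and mesenchyme, a cell class that in the trunk expresses HoxC genes, moved with the knockout comparison as well. All 12 of these markers rose, where 19.9% of all tested genes were called higher. Their sum went from 259.2 and 199.9 RPKM in wt E15.5 forebrain to 765.6 and 934.7 in EED-cKO forebrain, with none at 0 in any library. In wt forebrain the markers were expressed while HoxC was at 0 to 0.1 RPKM. Skeletal muscle markers summed to 6.6 and 103.7 RPKM in EED-cKO forebrain and 4.7 and 6.5 in wt, with Myf5 at 0 in every library and 0 of 2 tested markers called. Epidermis markers summed to 28.1 and 33.6 RPKM against 18.6 and 19.4 in wt, with 2 of 4 tested higher (Perp and Dsp). Cartilage markers summed to 55.1 and 53.9 against 37.4 and 28.8, with 2 of 4 tested higher (Col2a1 and Col9a1). The part of these cell types in the HoxC values was not tested.

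The genes most like the HoxC members in pattern were found by Pearson's r of log2(RPKM + 1) across the 8 libraries among 11626 genes, as a description without a test, since the libraries fall into 4 groups. Hox genes, genes with predicted or clone names, and genes below a mean of 5 RPKM in every group were left out of this ranking. Hoxd10 and Hotair, which shared the split between the spinal cord libraries, were therefore not ranked. With the mean of Hoxc4, Hoxc5 and Hoxc6, the closest were Skor2 (r = 0.999), Slc6a5 (0.998), Haglr (0.996), Hotairm1 (0.996) and Nkx1-1 (0.995). Skor2, a transcriptional corepressor gene, was at 12.7 and 14.7 RPKM in spinal cord, 2.2 in each EED-cKO library and 0.1 to 0.2 in wt forebrain. Slc6a5, the glycine transporter gene of inhibitory neurons, was at 15.9 and 16.7 in spinal cord and 2.5 in each EED-cKO library. Haglr and Hotairm1 are noncoding transcripts of the HoxD and HoxA clusters. With the mean of Hoxc10 to Hoxc13 the likeness was looser among the genes ranked: H19 (0.953), Shc1 (0.952), Lsp1 (0.952), Robo4 (0.946) and Tgfb1i1 (0.943). None of these 5 was near 0 in wt forebrain, where H19, an imprinted noncoding RNA gene, was at 171.6 to 218.3 RPKM.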

How the data were processed

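Libraries of total RNA (NEBNext Ultra) were read single-end and unstranded, per the labels' protocols. The authors deposited 1 table of RPKM values with 36333 rows and 8 libraries. The submitters' processing notes name the builds mm9 and GRCm38. The aligner and counting tool are not given in the sources used here. Positions and transcripts came from GENCODE on GRCm38, and mature microRNAs from RefSeq.

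Names of the E15.5 columns were reassigned alphabetically, ignoring case and hyphens, which raised r between the wt forebrain ages from 0.760 to 0.948 over all rows and moved 23016 names, all 9 HoxC names among them. Of symbols that occurred more than once, 16 rows of lower mean were dropped. Genes at 1 RPKM or more in at least 2 of 8 libraries were tested on log2(RPKM + 1), with a pseudocount of 1, by limma 3.58.1 (R 4.3.3, eBayes with trend, two-sided), with Benjamini-Hochberg adjusted p under 0.05 as the threshold. Each comparison was fitted on its own 4 libraries, because spinal cord libraries differ for posterior Hox genes, and the difference of changes on all 8. The fits of the 2 comparisons were tested on simulated data, with normal noise around each gene's mean. At a log2 change of 1 they recovered 56 of 100 changed genes for the knockout and 67 of 100 for the regions. At a log2 change of 2 they recovered 88 and 87 of 100. In each fit 6 unchanged genes were called. The simulation did not hold genes at 0 in wt forebrain, as most HoxC members were.

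The members, lists, fits and alternatives were chosen with earlier results of these data known. Named genes are the 9 members, Eed and Ezh2, transcripts in and around the cluster, up to 2 paralogues per group with the highest EED-cKO level, up to 3 members of each list by mean RPKM, and the 5 most similar genes. Genes listed for a count of 5 or fewer, and others outside this rule such as Cdx2, Tal1, Hoxb6, Hoxb8 and Hoxb9, were chosen after their values were seen. Some genes that the rule names are not reported here. Alternatives were other pseudocounts (0.1 and 0.5), filters, scalings, row orders and fits, and leaving out each library. Tables used pandas 2.3.3 and numpy 2.4.6 under Python 3.11.15, and figures matplotlib 3.10.9.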

Additional observations from a re-analysis of the deposited data

How the results depend on the processing

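The count of called HoxC members was 9 (knockout) and 5 (regions) under other pseudocounts, filters, scalings and without the variance trend, and the difference of changes then kept 5 lower and 1 higher. With all 8 libraries in the fit, 7987 genes were called in the knockout comparison in place of 4777, and 8 members. In the deposited row order 8 members were called, the count of members with a lower difference of changes was 1, the share of groups 10 to 13 in EED-cKO forebrain was 17.5%, and the Hoxc6 difference reversed to 0.53; these follow from other names on the same values. With each library left out in turn, knockout calls ranged from 0 to 8 members and 0 to 4652 genes (160 without EED-cKO replicate 1 and 119 without replicate 2), regional calls from 2 to 9 members and 1553 to 4743 genes, and members with a higher difference of changes from 1 to 4. These fits have fewer samples and assume that a lone library varies like the other group. With a replicate block the members' counts stayed at 9, 5, 1 and 5, while knockout calls over all genes were 1182. The numbers showed no pairing at E15.5 (r of replicate deviations across genes −0.12; 0.21 at E13.5), and crossed numbers, tried after seeing the data, gave 9 members and 3870 genes. Of knockout calls over all genes, 71.0% were higher, against 50.2% after quantile normalization and 83.7% with the block. Quantile normalization gave a summed HoxC level of 179 RPKM in EED-cKO forebrain and 375 in spinal cord, and median ratio scaling 179 and 353, against 228 and 279 as deposited. Without counts, the depth behind values near 0 is unknown.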
